A study of Homo sapiens with 18 samples.

Results

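The genomic targets of 2 kits for enrichment of methylated DNA, MethylCap and MethylCollector, were compared in 3 cancer cell lines. Each kit was applied once to fragmented DNA of HCT15 (colorectal carcinoma), DU145 (prostate cancer) and PC3 (prostate cancer), which gave 3 MethylCap and 3 MethylCollector libraries, 6 of the 18 samples of the series. These 6 libraries were chosen by their kit label, and all libraries with that label were used. The other 9 methyl-CpG-binding domain sequencing (MBD-seq) libraries, from 3 further kits, were not used here. Reduced representation bisulfite sequencing (RRBS), which gives the methylation degree of single CpGs, was available once for each cell line. The cells were untreated, and a pair of libraries from the same cell line differed in the kit and in nothing else that the labels name. With 1 library for each kit and line, the spread given below is between cell lines, and the repeat error of a kit on 1 line cannot be told apart from it.

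Both kits bind methylated double-stranded DNA to a protein domain that recognises methylated CpGs, wash off the remainder and release the bound fragments with salt. The fraction eluted at the highest salt concentration was sequenced for each kit. Most CpGs of the human genome are methylated and lie far apart, whereas the dense clusters of CpGs called CpG islands, found at many promoters, are mostly unmethylated in normal cells and often gain methylation in cancer. A captured fragment with several methylated CpGs offers several binding sites, so the number of CpGs in a fragment matters beside the methylation degree of each. The question was which parts of the genome were captured by both kits and which needed dense methylation.

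2 stretches of genome illustrate the targets described below. Each is the 200 bp outside annotated exons with the highest depth of the kit in question, within 1 kb of the 5′ end of the first gene of each direction in the promoter test that had an entry in the promoter table of RefSeq. They are given on GRCh37, plus strand, 5′ to 3′, with each CpG in capitals. The first lies in the first kilobase of CACNA1B, a gene for a neuronal calcium channel, at chr9:140772994-140773193, centred 860 bp downstream of the 5′ end. The second lies at chr1:207097032-207097231, centred at -540 bp from the 5′ end of FCMR, a gene for a receptor of IgM.
CACNA1B: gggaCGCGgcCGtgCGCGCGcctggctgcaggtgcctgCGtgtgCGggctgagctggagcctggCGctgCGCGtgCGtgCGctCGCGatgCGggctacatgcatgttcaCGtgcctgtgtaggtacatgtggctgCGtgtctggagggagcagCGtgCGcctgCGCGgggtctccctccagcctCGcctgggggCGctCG
FCMR: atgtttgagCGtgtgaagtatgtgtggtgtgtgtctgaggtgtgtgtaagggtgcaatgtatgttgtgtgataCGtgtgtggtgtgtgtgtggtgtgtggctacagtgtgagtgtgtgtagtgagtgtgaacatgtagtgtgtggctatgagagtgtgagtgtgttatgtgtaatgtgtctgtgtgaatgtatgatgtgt
The CACNA1B stretch holds 25 CpGs, and the FCMR stretch holds 2. At CACNA1B the MethylCollector depth was 674, 957 and 210 fold the autosomal mean of its library in HCT15, DU145 and PC3, against 33.4, 64.9 and 42.7 fold for MethylCap. At FCMR the MethylCap depth was 44.99, 160.2 and 89.2 fold in the same lines, and no MethylCollector fragment covered it in any line. The MethylCollector libraries were shallow, with a mean autosomal depth of 0.0171, 0.00168 and 0.00566 in these lines. At such depths an absent fragment does not show whether, or by how much, the share was lower with MethylCollector. RRBS gave no CpG of either stretch a coverage of 20 or more, so their methylation degree is not known from these data.

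The MethylCap libraries held 3825379, 811203 and 932107 non-duplicate fragments on the autosomes in HCT15, DU145 and PC3, and the MethylCollector libraries 261476, 29202 and 83485. Their median length was 172 to 192 bp with MethylCap and 153 to 181 bp with MethylCollector. All values were therefore set relative to the library: depth is given as fold over the mean depth of that library on the autosomes, and numbers of fragments as FPM, fragments per 1000000 autosomal fragments of the library. Among CpGs methylated in 1 line and unmethylated in the other 2 (15228 for HCT15, 2491 for DU145 and 1658 for PC3), all 6 libraries had their highest depth at the CpGs of the line on their label.

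Both kits enriched promoters and exons, and MethylCollector did so about 2 times as strongly. In promoters, here 1 kb either side of the 5′ ends of genes, MethylCap depth was 1.87, 1.73 and 1.73 fold the autosomal mean in HCT15, DU145 and PC3, and MethylCollector depth 4.06, 3.34 and 3.11 fold. The kits did not overlap, and the paired log2 difference was 0.97 ± 0.14 (SD, n = 3 lines). Exons outside promoters carried the highest depth of the 4 classes with either kit, 2.69, 2.40 and 2.58 fold for MethylCap and 5.00, 5.15 and 4.93 fold for MethylCollector, a log2 difference of 0.98 ± 0.11 (SD, n = 3). Introns stood at the autosomal mean with MethylCap, at 0.994, 0.986 and 1.02 fold, and below it with MethylCollector, at 0.75, 0.771 and 0.820 fold, a log2 difference of -0.36 ± 0.05 (SD, n = 3). Intergenic space was depleted with both kits, to 0.700, 0.764 and 0.687 fold with MethylCap and 0.539, 0.571 and 0.548 fold with MethylCollector, a log2 difference of -0.37 ± 0.05 (SD, n = 3).

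All 4 differences had the same sign in 3 of 3 lines and exceeded the spread between lines. The exact two-sided sign-flip test gave p = 0.25 for each, the smallest value that 3 pairs allow. The same p applies to every paired comparison below in which the 3 lines agree in sign, so the sizes and spreads are given in place of it. As shares, promoters held 4.07% of autosomal bases, 7.24% ± 0.31 (SD, n = 3) of MethylCap depth and 14.3% ± 2.02 of MethylCollector depth. Introns still made up the largest share with both, 55.6% ± 1.02 and 43.4% ± 2.00. Counting error was small beside these differences. In the shallowest library, MethylCollector on DU145, 3977 of 29202 fragments had their midpoint in a promoter, 13.6% with a 95% Wilson interval of 13.2% to 14.0%, which covers counting error only.

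**Figure D1:**
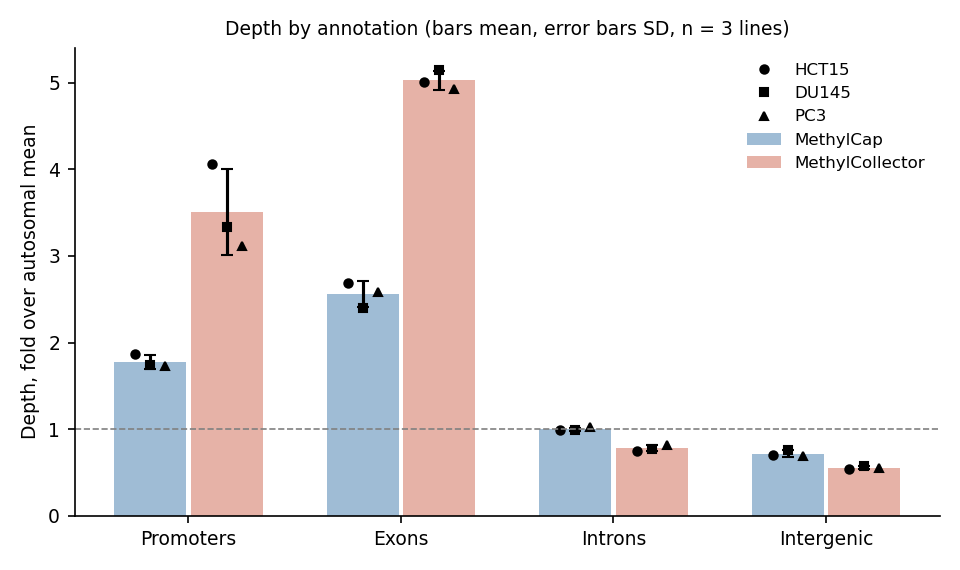
Depth in promoters, exons, introns and intergenic space as fold over the autosomal mean of each library (vertical axis, linear from 0). Bars are means of 3 cell lines with SD, points are the lines, and the dashed line marks the autosomal mean. MethylCollector lies above MethylCap in promoters (3.50 against 1.78) and exons (5.03 against 2.56) and below it in introns and intergenic space.

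The annotation classes differ in CpG content, so depth was next read by the number of CpGs alone, over all 200 bp tiles of the autosomes. Of the classes of tiles, those with 3 CpGs had the lowest mean ratio of MethylCollector to MethylCap. There MethylCap depth was 1.22, 1.21 and 1.28 fold the autosomal mean in HCT15, DU145 and PC3, and MethylCollector depth 0.338, 0.343 and 0.432 fold, a log2 ratio of MethylCollector over MethylCap of -1.74 ± 0.16 (SD, n = 3). MethylCap depth exceeded the autosomal mean from 3 CpGs, whereas MethylCollector reached it between 4 CpGs (0.758, 0.784 and 0.906 fold) and 5 CpGs (1.56, 1.65 and 1.78 fold).

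The order of the kits changed between tiles with 6 to 7 CpGs, where the log2 ratio was -0.45 ± 0.10 (SD, n = 3), and tiles with 8 to 9 CpGs, where it was 0.44 ± 0.07 (SD, n = 3). MethylCap was highest in tiles with 10 to 12 CpGs, at 7.72, 7.71 and 7.50 fold, and lower beyond, at 4.35, 5.29 and 5.10 fold with 21 or more. MethylCollector went on rising to 37.8, 34.2 and 30.4 fold with 16 to 20 CpGs and stood at 38.9, 35.3 and 28.8 fold with 21 or more, so that the log2 ratio reached 2.80 ± 0.34 (SD, n = 3). The log2 ratio at 13 to 15 CpGs exceeded that at 3 CpGs by 3.62 ± 0.25 (SD, n = 3).

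Seen from the fragments, tiles with 8 or more CpGs, 3.60% of all tiles, held 24.9% ± 0.32 (SD, n = 3) of MethylCap depth and 64.2% ± 3.81 of MethylCollector depth. Tiles with 4 to 7 CpGs held the largest share of MethylCap depth, 45.6% ± 0.94, against 24.6% ± 1.35 with MethylCollector. Tiles with 0 to 3 CpGs, 83.5% of all, held 29.4% ± 1.18 and 11.2% ± 2.67. For tiles without any CpG the lines differed widely, with log2 ratios of -0.32, -1.38 and -0.06 in HCT15, DU145 and PC3. Depth there was 0.104 fold or less in each of the 6 libraries.

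**Figure D2:**
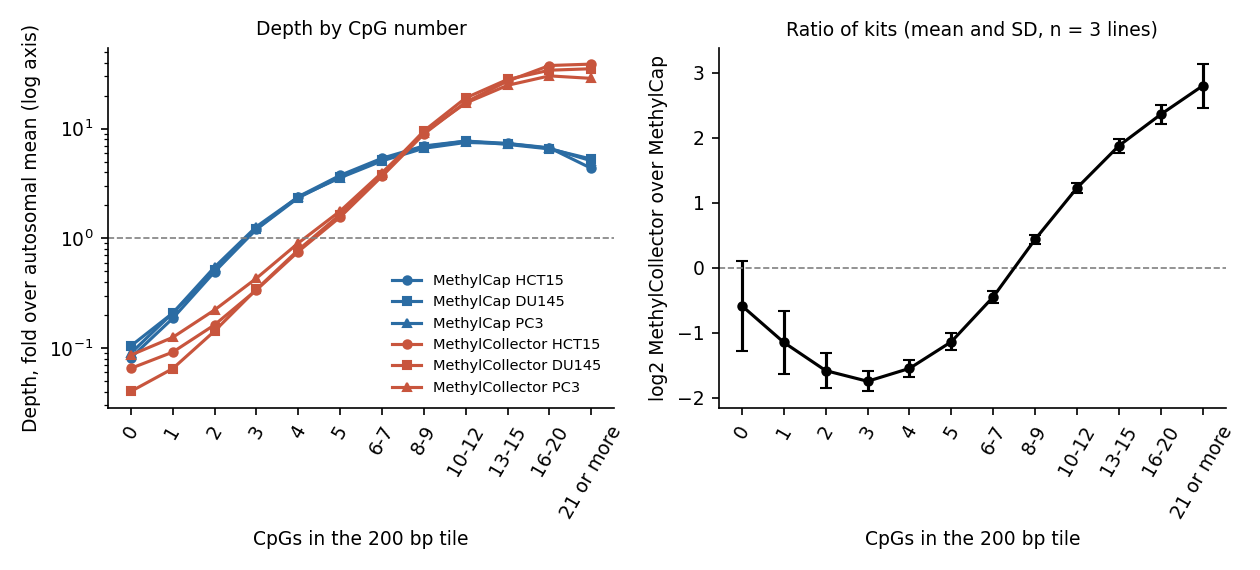
Depth of 200 bp autosomal tiles by their number of CpGs. Left, fold over the autosomal mean for each library on a log axis, with the dashed line at the mean. Right, log2 ratio of MethylCollector over MethylCap as mean and SD of 3 cell lines. MethylCap peaks near 7.64 fold at 10 to 12 CpGs, MethylCollector goes on to about 34 fold, and the ratio passes 0 between 6 to 7 and 8 to 9 CpGs.

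GC content moved with the number of CpGs, and tiles were split by both. At 10 to 12 CpGs the log2 ratio was 1.13 ± 0.03 (SD, n = 3) in tiles of 40 to 50% GC, 0.93 ± 0.04 at 50 to 60%, 1.46 ± 0.14 at 60 to 70% and 1.59 ± 0.18 at 70% or more. At 3 CpGs it was -1.84 ± 0.19 at 40 to 50% GC, -1.82 ± 0.15 at 50 to 60% and -1.41 ± 0.20 at 60 to 70%. Within a GC class of 50 to 60% the ratio thus still ran from -1.82 at 3 CpGs to 2.02 ± 0.20 at 16 to 20 CpGs, a larger distance than that between GC classes at either number.

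At a fixed number of CpGs the annotation classes kept an order of their own. In tiles with 10 to 12 CpGs, exons carried 12.8, 11.6 and 12.1 fold with MethylCap and 35.95, 37.6 and 36.5 fold with MethylCollector in HCT15, DU145 and PC3. Promoters of the same CpG number carried less, 5.13, 4.56 and 4.55 fold and 12.7, 11.8 and 10.8 fold. The log2 ratios, 1.59 ± 0.10 (SD, n = 3) in exons, 1.31 ± 0.06 in promoters, 1.14 ± 0.10 in introns and 0.97 ± 0.07 in intergenic space, differed far less than the depths. The kits therefore differed in the same direction in each class at this CpG number. Methylation degrees of these tiles were not matched between classes.

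RRBS gives the methylation degree that tiles lack. On the autosomes 1334709, 1712853 and 1576922 CpGs had a coverage of at least 20 in HCT15, DU145 and PC3, of which 656591, 941548 and 661659 were methylated (at least 80%) and 368192, 405567 and 468333 unmethylated (at most 20%). The PC3 file held no CpG on chromosome 22. CpGs were classed by how many other such CpGs lay within 100 bp on either side. CpGs that share fragments are not independent, and each comparison is over the 3 lines.

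At methylated CpGs, MethylCollector depth rose more steeply with the number of neighbours than MethylCap depth. With 0 neighbours MethylCap stood at 6.67, 5.58 and 6.20 fold and MethylCollector at 9.17, 6.91 and 7.61 fold. With 6 to 10 neighbours the values were 13.9, 11.9 and 14.8 fold for MethylCap and 62.3, 45.6 and 55.8 fold for MethylCollector. With 21 or more, MethylCollector reached 143, 222 and 163 fold. MethylCap reached 28.1 and 23.2 fold there in DU145 and PC3, and in HCT15 it stood at 10.7 fold, below the 14.7 fold it had with 11 to 15 neighbours.

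The log2 ratio of MethylCollector over MethylCap was 0.35 ± 0.09 (SD, n = 3) with 0 neighbours, -0.10 ± 0.25 with 1 to 2, 0.89 ± 0.08 with 3 to 5, 2.01 ± 0.13 with 6 to 10, 2.65 ± 0.23 with 11 to 15, 2.96 ± 0.31 with 16 to 20 and 3.18 ± 0.50 with 21 or more. The densest class exceeded the sparsest by 2.82 ± 0.41 (SD, n = 3), in 3 of 3 lines. From 0 to 21 or more neighbours MethylCollector depth grew 15.6, 32.2 and 21.4 times, and MethylCap depth 1.60, 5.04 and 3.74 times.

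The sparse end of this scale depends on what counts as a neighbour. Methylated CpGs with 0 RRBS neighbours had a median of 5, 5 and 4 other CpGs of the reference within 100 bp in HCT15, DU145 and PC3, because RRBS covers part of the CpGs only. The sign of the log2 ratio at 0 neighbours reversed with a coverage of at least 10 (-0.16 ± 0.14; SD, n = 3), with neighbours within 50 bp (-0.11 ± 0.27) and with neighbours of any coverage (-1.48 ± 0.47). Counting all reference CpGs gave -2.61 ± 0.40 (SD, n = 3) with 1 to 2 neighbours, -1.21 ± 0.16 with 3 to 5, 0.75 ± 0.05 with 6 to 10, 2.00 ± 0.03 with 11 to 15, 2.60 ± 0.11 with 16 to 20 and 3.05 ± 0.34 with 21 or more.

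The most isolated methylated CpGs, with no other reference CpG within 100 bp, numbered 1847, 1712 and 2756. MethylCap depth there was 1.42, 1.13 and 1.38 fold the autosomal mean, from summed depths of 732, 103 and 253. MethylCollector depth summed to 5, 0 and 6, or 0.158, 0 and 0.385 fold. The sum of 0 in DU145 allows up to 1.04 fold, little below the MethylCap value of that line.

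**Figure D3:**
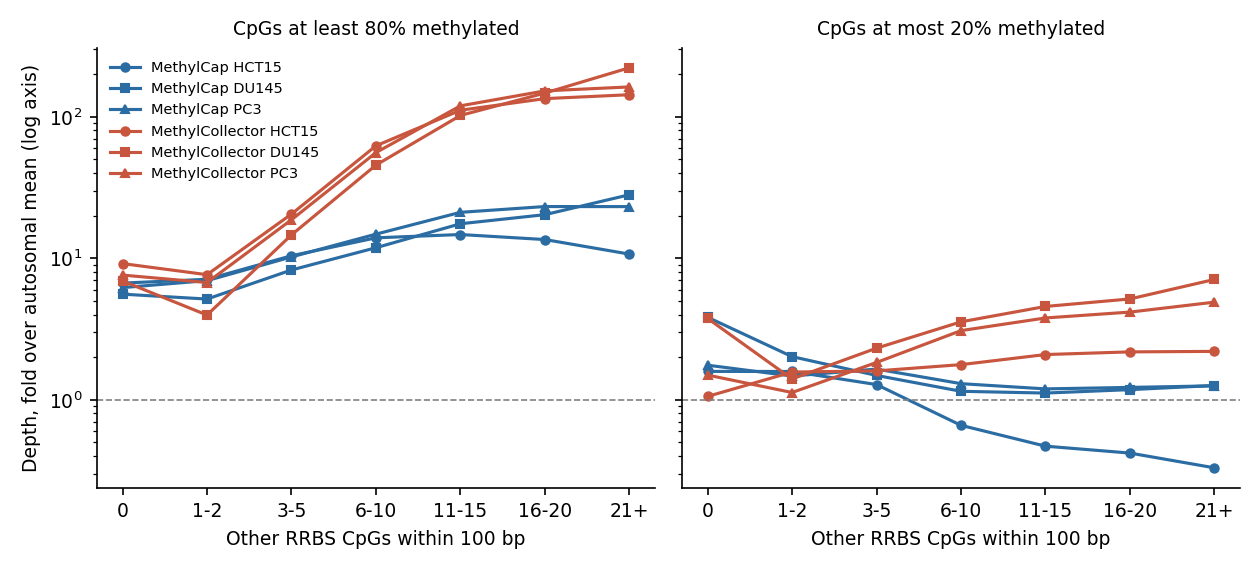
Depth at RRBS CpGs with coverage of at least 20 by number of other such CpGs within 100 bp (horizontal axis), as fold over the autosomal mean on a log axis, for each library. Left, CpGs at least 80% methylated, where MethylCollector rises from 6.91 to 9.17 fold with 0 neighbours to 143 to 222 fold with 21 or more. Right, CpGs at most 20% methylated, where MethylCollector stays at 7.08 fold or less.

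Unmethylated CpGs were the background of the same scale. With 21 or more neighbours MethylCap stood at 0.330, 1.26 and 1.25 fold and MethylCollector at 2.20, 7.08 and 4.90 fold in HCT15, DU145 and PC3. MethylCollector depth at dense unmethylated CpGs was thus above the MethylCap depth in 3 of 3 lines, by a log2 ratio of 2.40 ± 0.39 (SD, n = 3). The ratio of methylated to unmethylated CpGs in this class was 32.4, 22.3 and 18.5 with MethylCap and 65.1, 31.3 and 33.2 with MethylCollector. With 0 neighbours it was 4.21, 1.46 and 3.53 with MethylCap and 8.68, 1.84 and 5.09 with MethylCollector.

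Methylation of the neighbours was read at CpGs with 11 to 20 neighbours. Unmethylated CpGs among 0 to 2 methylated neighbours carried 0.376, 1.05 and 1.05 fold with MethylCap and 1.77, 4.37 and 3.30 fold with MethylCollector. Unmethylated CpGs among 11 or more methylated neighbours carried 15.7, 18.2 and 12.8 fold and 70.8, 65.8 and 81.0 fold. Depth with both kits therefore followed the neighbours at CpGs that were themselves unmethylated. The log2 ratio of the kits was 1.98 ± 0.30 (SD, n = 3) in the former class and 2.23 ± 0.41 in the latter. At methylated CpGs it was 2.38 ± 0.41 and 2.81 ± 0.25. Methylated CpGs among 0 to 2 methylated neighbours carried 3.91, 9.59 and 7.48 fold with MethylCap and 26.55, 52.4 and 28.8 fold with MethylCollector. The class of unmethylated CpGs among 11 or more methylated neighbours held 154, 172 and 168 CpGs, with a summed MethylCollector depth of 19 in DU145.

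Promoters of the 19229 autosomal protein-coding genes were classed by sequence. High-CpG promoters (12287) held a 500 bp stretch with an observed over expected CpG ratio of at least 0.75 and a GC content of at least 55%, low-CpG promoters (4020) held none with a ratio of 0.48 or more, and 2922 were intermediate. High-CpG promoters carried 2.18, 1.86 and 1.83 fold with MethylCap and 8.89, 5.64 and 5.34 fold with MethylCollector, a log2 ratio of 1.72 ± 0.26 (SD, n = 3). Intermediate promoters had a ratio of 0.75 ± 0.11. Low-CpG promoters went the other way, with 1.63, 1.58 and 1.65 fold against 1.03, 1.06 and 1.23 fold, a ratio of -0.56 ± 0.12 (SD, n = 3).

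Among promoters at least 80% methylated by RRBS the contrast between classes remained. Methylated high-CpG promoters (1470, 481 and 443 in HCT15, DU145 and PC3) carried 7.44, 7.79 and 8.49 fold with MethylCap and 42.6, 38.4 and 39.98 fold with MethylCollector, a log2 ratio of 2.35 ± 0.15 (SD, n = 3). Methylated low-CpG promoters (194, 240 and 170) carried 6.24, 5.38 and 7.05 fold and 5.69, 4.17 and 7.54 fold, a ratio of -0.13 ± 0.23 whose sign differed between lines. Both kits had more depth at methylated high-CpG than at methylated low-CpG promoters in 3 of 3 lines, and the gap was wider with MethylCollector.

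The deeper MethylCap libraries covered more promoters as deposited, and at equal numbers of fragments the order changed for high-CpG and intermediate promoters. As deposited, 99.9%, 91.9% and 96.2% of methylated high-CpG promoters held a MethylCap fragment and 96.9%, 45.9% and 75.6% a MethylCollector fragment. With MethylCap drawn down to the fragment number of MethylCollector in the same line, 71.8% (95% Wilson interval 69.4% to 74.0%), 15.2% (12.2% to 18.7%) and 33.9% (29.6% to 38.4%) held a MethylCap fragment. The MethylCollector intervals, 95.9% to 97.7%, 41.5% to 50.4% and 71.4% to 79.4%, lay above these in each line. The intervals here and below take promoters as independent and cover counting error only. They leave out the repeat error of a kit, the pairing of promoters between kits and the variation of the random draw. Whether they overlap is therefore a description and not a test of the kits. For methylated intermediate promoters the shares at equal depth were 65.7%, 9.34% and 35.0% with MethylCap and 77.6%, 21.4% and 42.1% with MethylCollector, and the intervals were apart in HCT15 and DU145 and overlapped in PC3. For methylated low-CpG promoters the shares at equal depth were 58.2%, 11.7% and 30.6% with MethylCap and 52.6%, 8.33% and 32.4% with MethylCollector, and their intervals overlapped in each line.

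Single promoters were tested with edgeR's quasi-likelihood test on fragments counted by midpoint, with the autosomal total as library size and the cell line as block. The 2054 promoters with at least 30 fragments over the 6 libraries were tested. The MethylCap library of HCT15, the deepest, held 121343 of the 169657 MethylCap fragments in promoters, so the filter was met mainly through it. At an adjusted p under 0.05, 1157 promoters (56.3% of those tested) had a higher share in MethylCollector and 3 (0.146%) a higher share in MethylCap. For 462 of the 1157 the share was higher in MethylCollector in 3 of 3 lines. This needs a MethylCollector fragment in each line, so the 462 are limited by depth and do not measure how far the lines agreed. The numbers called in either direction cannot be set against each other because at the MethylCollector depth the test had less power for a lower share: of the 60 tested promoters with no MethylCollector fragment at all, 3 were called. The median log2 ratio was 1.92 over all tested promoters and 2.42 over the 1157. The first median depends on the filter and the model. With no filter it was -1.29 over 15160 promoters, with 40.4% of them higher in MethylCollector. Only 5825, 1365 and 2735 of the 19229 promoters held a MethylCollector fragment in HCT15, DU145 and PC3, and the fitted ratio of a promoter without one depends on a prior count. On the 2054 promoters and the same scale, limma gave a median of 0.30 with a pseudocount of 0.5 FPM and of 0.64 with 5 FPM.

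This count rests on the autosomal total as the common scale. Scaled to the promoters themselves, 0 promoters were higher in MethylCollector, with 28 lower by edgeR after TMM scaling and 13 lower by DESeq2, and the median log2 ratio was then -0.18 and -0.52. The calls therefore state that promoters took a larger part of MethylCollector fragments, not that the promoters called differed from the other tested ones. At an unadjusted p under 0.05, the test on the autosomal total had 1257 higher and 11 lower in MethylCollector, edgeR with TMM 30 and 262, and DESeq2 9 and 141.

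Calls were unevenly spread over the CpG classes. They included 1083 of 1481 tested high-CpG promoters (73.1%), 71 of 383 intermediate promoters (18.5%) and 3 of 190 low-CpG promoters (1.58%), with median log2 ratios of 2.22, 0.90 and -0.47 over all tested promoters of each class. The 1157 had a median of 138 CpGs in 2 kb and the 894 promoters not called 78. Their median methylation degrees were 91.3%, 45.8% and 44.7% in HCT15, DU145 and PC3 for the former and 84.8%, 70.9% and 65.8% for the latter.

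**Figure D4:**
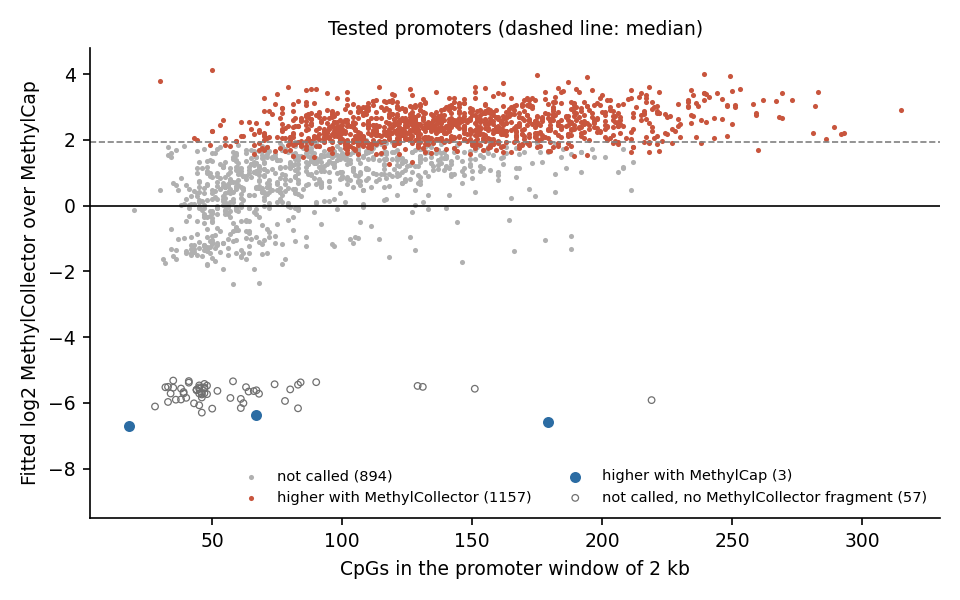
Fitted log2 ratio of MethylCollector over MethylCap (vertical axis) against CpGs in the 2 kb promoter window for the 2054 tested promoters, coloured by call at an adjusted p under 0.05. Open circles and the 3 blue points had no MethylCollector fragment, and their fitted values far below 0 depend on a prior count and are no measure of size. The dashed line is the median of 1.92.

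The 10 promoters with the smallest p among those higher in 3 of 3 lines are given first. They were chosen by these same values, so the separation of the kits at them is a description. FGF4, a gene for a fibroblast growth factor of the embryo, held 30, 11 and 13 MethylCap fragments in HCT15, DU145 and PC3 and 32, 4 and 10 MethylCollector fragments in its promoter. Relative to the libraries these were 7.84, 13.6 and 13.9 FPM against 122, 137 and 120. The log2 ratio was 3.57 ± 0.42 (SE; edgeR adjusted p = 7.4e-14). FGF4 lies on chromosome 11 with its 5′ end at position 69590109 of GRCh37, and its promoter held 183 CpGs with a mean methylation degree of 91.8%, 64.3% and 48.7%.

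CACNA1B, whose stretch of 25 CpGs is printed above, held 10.7, 19.7 and 9.66 MethylCap FPM and 145, 171 and 71.9 MethylCollector FPM. Its log2 ratio was 3.41 ± 0.42 (SE; edgeR adjusted p = 3.6e-13), and its 239 CpGs had a mean degree of 93.3%, 58.0% and 93.9%. TRIM71, a gene for an RNA-binding ubiquitin ligase of stem cells, held 251 CpGs, with 8.63, 13.6 and 35.4 FPM against 107, 171 and 132. The PC3 value was the highest of the 3 with MethylCap only.

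NKX1-1, a homeobox gene with 234 CpGs, held 6.54, 18.5 and 7.51 MethylCap FPM against 99.4, 137 and 71.9 with MethylCollector. TLX3, a homeobox gene of neuronal fate with 203 CpGs, held 9.67, 16.0 and 9.66 against 88.0, 34.2 and 168. UCN, the gene for the neuropeptide urocortin, held 8.36, 14.8 and 8.58 against 99.4, 68.5 and 108. The log2 ratios of these 3 were 3.51, 3.22 and 3.35 (edgeR adjusted p = 2.3e-11, 8.4e-11 and 8.4e-11). Their MethylCollector values in DU145 rested on only 4, 1 and 2 fragments, so the separation of the kits in that line is uncertain. The 1 fragment of TLX3 there made 34.2 FPM, above each MethylCap value of these 3 genes. Without HCT15, edgeR no longer called UCN (adjusted p = 0.051), TLX3 (0.080) and TRIM71 (0.11).

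CCDC166 (188 CpGs, log2 ratio 2.93) and ABHD16B, a gene of a hydrolase family (139 CpGs, 2.92), had the most MethylCap fragments of the 10, with 114 for the former. Both were at least 92.5% methylated in each line. GUCY2D, the gene for a guanylate cyclase of photoreceptors, had a log2 ratio of 3.60 with 114 CpGs. Its promoter was 75.1%, 88.1% and 55.5% methylated.

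RD3, a gene for a regulator of that cyclase, stood apart from the other 9. Its promoter is a low-CpG promoter with 30 CpGs in 2 kb, and it held 10.5, 4.93 and 3.22 MethylCap FPM against 134, 103 and 47.9 with MethylCollector, a log2 ratio of 3.79 ± 0.50 (SE; edgeR adjusted p = 9.9e-12). The 200 bp of its promoter with the highest MethylCollector depth held 5 CpGs, against 19 to 34 CpGs in those of the other 9. Elsewhere the promoter held a run of TG or CA of 43 bp, and 0.692% of all promoters held one as long. The 200 bp were chosen by MethylCollector depth, which was 569, 1317 and 242 fold the autosomal mean in them. MethylCap depth in the same 200 bp was 33.8, 10.9 and 19.3 fold. The whole promoter held 35, 3 and 4 MethylCollector fragments and 40, 4 and 3 MethylCap fragments in HCT15, DU145 and PC3. Without HCT15 it fell short of the 30 fragments needed for the test.

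The 3 promoters called higher in MethylCap had no MethylCollector fragment in any line. FCMR held 10.2, 16.0 and 21.5 MethylCap FPM in HCT15, DU145 and PC3, C2CD2 8.63, 27.1 and 17.2, and NOD2, the gene for an intracellular sensor of bacterial peptidoglycan, 9.41, 11.1 and 12.9. Against the floor of 3 fragments over the 3 MethylCollector libraries, their shares were at least 1.61, 1.59 and 1.28-fold higher with MethylCap. They passed the filter through MethylCap fragments alone, the kit in which they were called higher, so these values are a description. With no filter, edgeR called none of the 3 (adjusted p = 0.108, 0.130 and 0.236 for FCMR, C2CD2 and NOD2), nor without PC3 (0.0885, 0.0888 and 0.118), and limma with a pseudocount of 5 FPM called none of them (0.156, 0.160 and 0.0872). FCMR and C2CD2 were also not called without HCT15 (0.109 and 0.134), nor C2CD2 and NOD2 without DU145 (0.0599 and 0.0722). The floor is high because the MethylCollector libraries were shallow. 60 tested promoters had no MethylCollector fragment, with 30 to 72 MethylCap fragments each, and the other 57 of them were not called. These 60 had a median of 47 CpGs, and 33 were low-CpG promoters.

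In these 3 promoters the MethylCap depth was not at the CpG-rich part. The highest 200 bp were centred at -540, -760 and -740 bp from the 5′ end and held 2, 6 and 3 CpGs. MethylCap depth there was 44.99, 160.2 and 89.2 fold at FCMR, 50.8, 216 and 120 fold at C2CD2 and 57.7, 54.9 and 55.3 fold at NOD2. The promoters of C2CD2 and NOD2 hold 179 and 67 CpGs, and where RRBS covered them the mean degree was low, at 9.96% and 11.9% for C2CD2 in HCT15 and DU145 and 11.0%, 19.03% and 31.2% for NOD2. None of the 3 stretches held a CpG of sufficient RRBS coverage.

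Lists of genes with CpG-dense or CpG-sparse promoters were then read as sums, beside a log2 ratio of 1.34 ± 0.24 (SD, n = 3) over all promoters. Of the dense lists, germline genes, which are silenced by promoter methylation in somatic cells, and HOX genes, the clustered homeobox genes of body patterning, had the highest ratios. The 35 germline promoters carried 4.99, 4.03 and 4.72 fold with MethylCap and 25.2, 28.5 and 19.1 fold with MethylCollector, a log2 ratio of 2.39 ± 0.41 (SD, n = 3). The 39 HOX promoters carried 3.71, 4.10 and 4.67 fold against 15.5, 22.8 and 22.4 fold, a ratio of 2.26 ± 0.21. Most members are high-CpG promoters, 29 of the 35 germline and 33 of the 39 HOX promoters. Of the tested members 9 of 12 germline and 9 of 13 HOX promoters were called higher in MethylCollector, and none higher in MethylCap. These counts are near the 73.1% called among tested high-CpG promoters, beside 56.3% of all promoters tested. Like all calls of a higher share in MethylCollector, they were lost when libraries were scaled to the promoters by TMM or DESeq2.

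The 3 germline members with the most fragments were SYCP2 of the synaptonemal complex and TDRD9 and TDRD12 of the piRNA pathway. SYCP2 held 29, 10 and 10 MethylCap fragments and 23, 1 and 6 MethylCollector fragments, a log2 ratio of 3.04 ± 0.50 (SE; edgeR adjusted p = 1.1e-07). TDRD9 had a ratio of 2.42 (adjusted p = 0.00066) and TDRD12 of 1.98 (adjusted p = 0.0090). Of the HOX members, HOXA5 and HOXD9 were called, with log2 ratios of 2.41 and 2.34 from 15 MethylCollector fragments each, none of them in DU145. HOXC12 was not, at 1.20 from 7 such fragments. On the autosomal scale limma called neither HOXA5 (adjusted p = 0.9995 and 0.377 with pseudocounts of 0.5 and 5 FPM) nor HOXD9 (0.9995 and 0.385), and their log2 ratios at 0.5 were 0.88 and 0.75. TDRD9, with no MethylCollector fragment in PC3, and TDRD12 were not called by limma either (0.172 and 0.112 at 5 FPM), and with no filter TDRD12 stood at an edgeR adjusted p of 0.0599.

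The 53 clustered protocadherin promoters, of genes for neuronal adhesion proteins, had a log2 ratio of 1.53 ± 0.74 (SD, n = 3), and the 246 promoters of zinc finger genes on chromosome 19 one of 0.84 ± 0.33, below that of all promoters. Of tested members, 3 of 4 protocadherins and 6 of 19 zinc finger genes were called higher in MethylCollector. The shares called over all tested promoters and over tested high-CpG promoters were 56.3% and 73.1%. PCDHGA8 and PCDHAC1 were called, with log2 ratios of 2.60 and 3.54, and PCDHGC4 was not, at 1.40. Of the zinc finger genes with the most fragments, ZNF565 (2.77) and ZNF667 (2.04) were called, and ZNF835 was not, at 0.80. PCDHAC1 had all its 14 MethylCollector fragments in HCT15, where it was 92.4% methylated against 12.6% and 12.3% in DU145 and PC3. ZNF667 likewise had all its 12 MethylCollector fragments in HCT15, and its share was higher in MethylCollector in 1 of 3 lines. With no filter edgeR did not call ZNF667 (adjusted p = 0.0747), and limma called neither PCDHAC1 (0.9995 and 0.553 with pseudocounts of 0.5 and 5 FPM) nor ZNF667 (0.9995 and 0.978).

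Of the sparse lists, olfactory receptor and keratin-associated protein promoters had log2 ratios below 0. The 398 olfactory receptor promoters, with a median of 13 CpGs in 2 kb, carried 0.447, 0.749 and 0.499 fold with MethylCap and 0.448, 0.652 and 0.399 fold with MethylCollector, a log2 ratio of -0.17 ± 0.16 (SD, n = 3). The 94 promoters of keratin-associated proteins, the matrix proteins of hair, carried 2.37, 4.38 and 4.19 fold against 2.19, 3.65 and 2.38 fold, a ratio of -0.40 ± 0.37 with the sign shared by 3 of 3 lines. None of their 14 tested members was called in either direction. Of the 94 promoters 73 are low-CpG promoters. Of all tested low-CpG promoters 1.58% were called higher in MethylCollector and 0 in MethylCap, beside 56.3% and 0.146% of all promoters tested. KRTAP10-12, KRTAP10-9 and KRTAP10-3, with 45 to 54 CpGs, held 53 to 64 MethylCap fragments each and 4 to 5 MethylCollector fragments. Near-identical copies of such genes lie side by side, and only uniquely mapped fragments were kept.

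Defensin promoters, 46 with a median of 16.5 CpGs, held 54, 10 and 2 MethylCap fragments and none with MethylCollector, a share at least 1.48-fold higher with MethylCap against the floor of 3 fragments. The 27 taste receptor promoters held 70, 18 and 23 MethylCap fragments and 11, 0 and 11 MethylCollector fragments. They carried 0.968, 1.11 and 1.27 fold with MethylCap against 2.30, 0 and 7.37 fold with MethylCollector, log2 ratios of 1.25 in HCT15 and 2.53 in PC3, above 0 like those of the dense lists. TAS1R3, a subunit of the sweet and umami receptors and the 1 member tested, held 87 CpGs and had 18 of the 22 MethylCollector fragments and a log2 ratio of 2.33 (edgeR adjusted p = 0.00039), a call that limma did not make (0.326 with a pseudocount of 5 FPM). OR3A2, an olfactory receptor gene with 110 CpGs, was likewise called (2.90), whereas OR1K1 and OR5C1, with 47 and 52 CpGs, were not (0.38 and -0.25).

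Ribosomal protein and histone genes, with dense promoters that active cells mostly keep unmethylated, were the control lists. The 79 ribosomal protein promoters had a median methylation degree of 13.2%, 16.5% and 14.9% and carried 1.09, 1.25 and 1.47 fold with MethylCap against 2.34, 2.77 and 3.18 fold with MethylCollector, a log2 ratio of 1.12 ± 0.02 (SD, n = 3). The 84 histone promoters had a ratio of 1.26 ± 0.80. RPL22 had the most fragments of the former, 31, 12 and 17 with MethylCap and 15, 2 and 6 with MethylCollector, and was called (2.44, edgeR adjusted p = 2.2e-05), with no RRBS value for its promoter. H2BC10 was the called histone gene of the 3 with the most fragments (2.83; limma adjusted p = 0.458 with a pseudocount of 5 FPM), beside H3-4 (0.07) and H2BK1 (1.53), which were not called. The H2BC10 promoter was methylated to 98.6%, 40.3% and 55.5% in HCT15, DU145 and PC3, so its call is not one at an unmethylated promoter. RPL3L, not called, was 96.5% and 98.9% methylated in HCT15 and DU145. Of all tested members of the control lists, 1 of 3 ribosomal protein and 3 of 6 histone promoters were called higher in MethylCollector. The shares called over all tested promoters and over tested high-CpG promoters were 56.3% and 73.1%.

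The FCMR stretch printed above is rich in alternating TG, and such runs were followed over the autosomes after these values had been seen. Among CpG-poor tiles, with 0 to 2 CpGs, those holding a run of TG or CA repeats of 10 to 19 bp had a MethylCap depth of 1.10, 1.67 and 1.75 fold the autosomal mean in HCT15, DU145 and PC3. Tiles without a run of 10 bp stood at 0.209, 0.224 and 0.226 fold, so the tiles with a run carried 5.26, 7.45 and 7.73 times as much. With MethylCollector the depths were 0.151, 0.180 and 0.294 fold against 0.0976, 0.0725 and 0.131 fold, or 1.55, 2.48 and 2.24 times as much. The log2 ratio of the kits fell by 1.71 ± 0.11 (SD, n = 3) from tiles without to tiles with a run, in 3 of 3 lines.

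Other repeats of 2 bases moved the ratio less. Runs of GA or TC of the same length moved the log2 ratio of the kits by 0.11 ± 0.20 (SD, n = 3), with lines of both signs, and runs of AT by -0.31 ± 0.09. MethylCap depth in tiles with such runs was 1.06 to 1.35 times that of tiles without for GA or TC and 1.01 to 1.501 times for AT. The tiles with a TG or CA run of 10 to 19 bp numbered 95582. Of all promoters 7.71% held a run of TG or CA as long as the longest in the FCMR promoter, 12 bp, which is also the longest in that of C2CD2, and 5.54% one as long as that of NOD2, 15 bp. At C2CD2 the run lay outside the stretch of highest depth. The RD3 promoter, higher in MethylCollector, held the longer run of 43 bp.

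**Figure D5:**
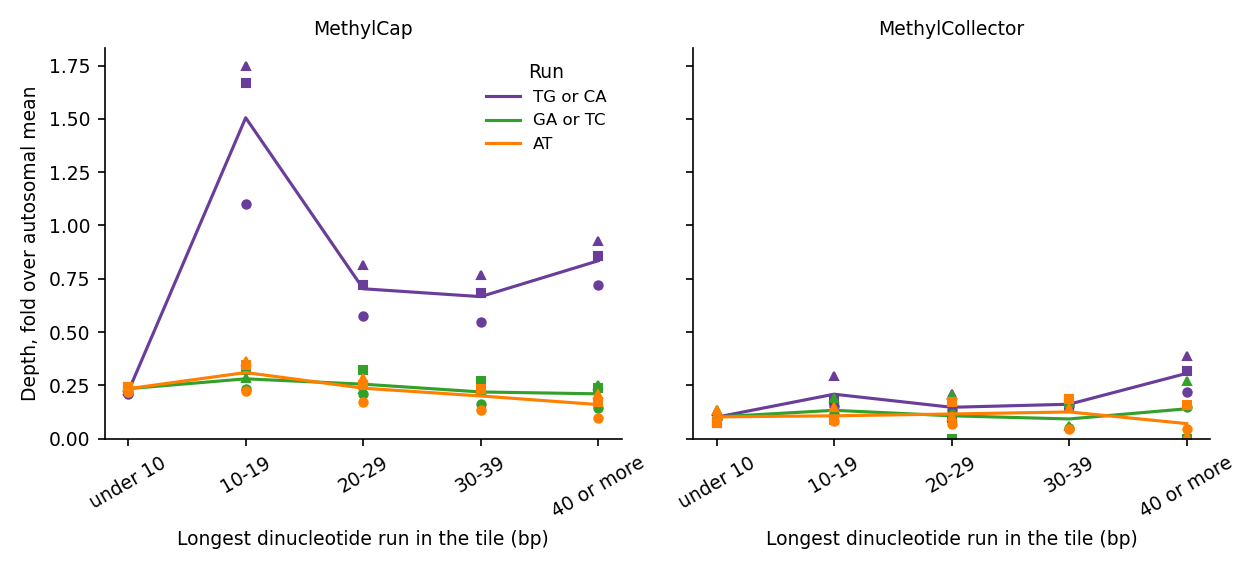
Depth of 200 bp tiles with 0 to 2 CpGs by the longest run of TG or CA, GA or TC, or AT repeats in the tile, as fold over the autosomal mean (vertical axis, linear). Points are the 3 cell lines (circle HCT15, square DU145, triangle PC3) and lines their means. TG or CA runs of 10 to 19 bp stand at 1.10 to 1.75 fold with MethylCap and at 0.151 to 0.294 fold with MethylCollector.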

How the data were processed

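MBD-seq depth of MethylCap and MethylCollector libraries and RRBS of the same 3 cell lines were used. Read pairs were placed on hg19 (NCBI build 37) with Bowtie by the authors, who kept unique pairs lying close together and collapsed duplicates. The deposited MBD-seq signal is unscaled depth in runs, and the deposited RRBS counts are methylated and total reads per CpG with both strands summed. The kit libraries of a line came from the same fragmented DNA, so the cell line was the pairing, and all 6 libraries had their highest depth at CpGs methylated in their own line. The members and gene lists were chosen with earlier results of these data known. DU145 is credited to different suppliers in the labels and the methods.

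Analysis used GRCh37 and GENCODE 44 genes on chromosomes 1 to 22. RRBS rows off the autosomes (66470, 87500 and 1641 in HCT15, DU145 and PC3) or not on a 2 bp CG (569, 577 and 653) were left out. Depth was summed per class and divided by the autosomal mean of the library. Promoters took precedence over exons, exons over introns. Fragments were rebuilt by taking rises of depth as starts and falls as ends, and fragments that meet end to end merge. Positions with a depth over 9 hold at most 3.60% of a library's depth. Tests were the exact two-sided sign-flip test over 3 lines and, for promoters with at least 30 fragments, edgeR 4.0.16 (quasi-likelihood, no scaling beyond the autosomal total, Benjamini-Hochberg adjustment). DESeq2 1.42.0, TMM and limma 3.58.1 were alternatives, with narrower and wider promoters, other RRBS coverage and distance limits, other tile sizes, equal depth and each line left out. The SE of a log2 ratio was taken from the F statistic. Named promoters were the 10 with the smallest p in each direction among those called and differing that way in 3 of 3 lines, 1 for each overlapping window, and the 3 members with most fragments of each list. Promoter methylation is the mean over RRBS CpGs with coverage of at least 20, at least 5 of them where promoters are classed. The scripts were tested on simulated data with log2 changes of 1 and 2. The promoter test recovered 0% of the promoters raised in MethylCollector by 1 and 34.7% of those raised by 2. It recovered 0% of those lowered by either.

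Intervals and floors cover counting error only. Depth sets the precision: MethylCollector had 29202 fragments in DU145, so single promoters there hold few.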

Additional observations from a re-analysis of the deposited data

Results flagged for a closer look

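Results are listed here because the 3 cell lines did not share a sign, and in each case the difference between lines was not tested. At all RRBS CpGs with 1 to 2 neighbours the log2 ratio of MethylCollector over MethylCap was 0.059, -0.37 and -0.064 in HCT15, DU145 and PC3, and at methylated ones 0.11, -0.38 and -0.045. At low-CpG promoters at least 80% methylated it was -0.13, -0.37 and 0.097, and at those between 20% and 80% it was -0.57, 0.19 and -0.23. At olfactory receptor promoters it was 0.0050, -0.20 and -0.32.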

How the results depend on the processing

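Values are log2 ratios of MethylCollector over MethylCap unless they are counts. The pairing by cell line was part of each comparison. With no replicate block, the exact permutation test of 3 against 3 libraries gave p = 0.1, the smallest it allows, for promoter depth (0.97) and the other class results, and 900 promoters were called higher in MethylCollector and 2 in MethylCap. Without the block KRTAP10-9 stood at -0.11. Where a value moved or reversed below, the cause was not tested unless the setting left fewer promoters or lines to test.

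Promoter depth was 1.18 within 500 bp, 0.72 in the wider window, 0.79 with every transcript and 1.33 with protein-coding genes. Intron depth was -0.42 with every transcript, intergenic depth -0.25 with protein-coding genes, and the contrast of tiles 1.77 in wider tiles. The contrast of 21 or more against 0 neighbours was 3.35 at coverage of at least 10, 3.40 within 50 bp and 4.65 with neighbours of any coverage. With 0 neighbours the ratio was -0.16, -0.11 and -1.48 under the same settings, 0.69 at coverage of at least 50 and 0.22 within 200 bp. With 1 to 2 neighbours it was 1.01 at coverage of at least 50, 0.48 within 50 bp and 0.031 without DU145, and with 3 to 5 reference neighbours -1.21. Within 500 bp high-CpG promoters stood at 2.03 and intermediate ones at 0.97. Low-CpG promoters at least 80% methylated stood at 0.28 with at least 10 RRBS CpGs each.

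Promoters called higher in MethylCollector and in MethylCap numbered 0 and 28 with TMM, 0 and 13 with DESeq2, 351 and 60 with limma at a pseudocount of 0.5, 371 and 52 at 5, 1110 and 0 with no filter, 30 and 0 of 34 with at least 100 fragments, 478 and 0 within 500 bp, and 72 and 0 of 72 at equal depth. Without HCT15 they numbered 32 and 0 of 91 tested, without DU145 980 and 1, and without PC3 947 and 0. At equal depth the filter of 30 fragments was applied after MethylCap had been drawn down. Promoters could then meet it mainly through MethylCollector, the kit in which they were called higher, so 72 of 72 is a description.

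Leaving out each line gave 0.90 to 1.03 for promoters, 0.91 to 1.02 for exons, -0.38 to -0.33 for introns, -0.40 to -0.35 for intergenic space, 3.54 to 3.77 for the contrast of tiles, 2.59 to 2.98 for that of neighbours, 0.30 to 0.38 for 0 neighbours, 2.90 to 3.36 for 21 or more, and 1.57 to 1.81, 0.71 to 0.81 and -0.62 to -0.50 for high, intermediate and low-CpG promoters.

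Single promoters reversed as follows, with TMM first and DESeq2 second: HOXC12 -0.94 and -1.12, PCDHGC4 -0.62 and -0.62, ZNF835 -1.28 and -1.45, ZNF667 -0.079 and -0.93, TDRD12 -0.12 and -0.38, OR1K1 -1.70 and -1.82, KRTAP10-12 -1.85 and -2.02, KRTAP10-9 -2.10 and -2.29, KRTAP10-3 -1.61 and -1.90, RPL3L -0.87 and -1.25, H3-4 -1.95 and -2.10, and H2BK1 -0.51 and -0.63. With DESeq2 alone TDRD9 was -0.10 and TAS1R3 -0.012. With limma at 0.5 ZNF667 was -1.24, KRTAP10-9 -1.03, KRTAP10-3 -1.17, RPL3L -0.66 and H3-4 -1.05, and at 5 KRTAP10-9 was -0.11, KRTAP10-3 -0.34 and H3-4 -0.20. Without DU145 OR1K1 was -0.077 and KRTAP10-9 -0.93. Without PC3 OR5C1 was 0.13, KRTAP10-12 -0.51 and H3-4 -0.87.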

Other observations

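In tiles with 0 to 2 CpGs, mean MethylCap depth was 1.505 fold the autosomal mean with TG or CA runs of 10 to 19 bp, 0.703 fold with 20 to 29 bp, 0.666 fold with 30 to 39 bp and 0.834 fold with 40 bp or more. Mean MethylCollector depth was 0.208, 0.147, 0.161 and 0.306 fold in the same classes. In tiles where the tile and both neighbours held 0 CpGs, mean MethylCap depth was 0.434 fold with a run of 10 to 19 bp and 0.0294 fold without a run, and MethylCollector depth 0.164 and 0.0428 fold.

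The 3 promoters called higher in MethylCap were among the 195 tested promoters whose longest TG or CA run was 10 to 19 bp, and 0 were among the 1755 without a run of 10 bp. Of the same 195, 96 (49.2%) were called higher in MethylCollector, with a median log2 ratio of 1.69, beside 57.1% and 1.94 for those without a run. Of the 28 with a run of 40 bp or more, 71.4% were called higher in MethylCollector and 0 in MethylCap. These runs were looked at after the 3 promoters had been seen, and the 3 passed the filter through MethylCap fragments alone. Their count is therefore a description and cannot serve as a test of the runs.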
